A study of Mus musculus with 4 samples.

Results

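Interleukin-1 (IL-1), tumor necrosis factor (TNF) and the colony-stimulating factors are the cytokines most often followed in an inflamed lung, and 9 of their genes were read out here by RNA-Seq: Il1a, Il1b, Il1rn, Il18, Il33, Tnf, Il6, Csf1 and Csf2. They were chosen by symbol, and all 9 were found among the 17780 genes of the deposited table. The study compared young male mice, C57BL/6 in the labels and C57BL/6J in the methods, in 4 groups, each represented by 1 lung library. Mice received vehicle, which was a carboxymethylcellulose suspension, amiodarone (an antiarrhythmic drug with known lung toxicity), dabigatran (a thrombin inhibitor, given as its oral prodrug), or amiodarone + dabigatran, all by mouth on weekdays for 28 days according to the labels, while the methods give an earlier day of collection. Poly(A) RNA came from snap-frozen lung, and neither the labels nor the methods say whether a library held RNA of 1 animal or of a pool. The library labelled vehicle was the control for both single drugs, so that the amiodarone and dabigatran comparisons with vehicle share it. The addition of amiodarone could be read from a pair of comparisons that share no library, amiodarone against vehicle and the combination against dabigatran.

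With 1 library per group there was no replicate check and no test. A ratio here is a quotient of FPKM values (a level corrected for transcript length and for the depth of the library) of 2 libraries, and the range after it is an exact 95% counting interval (Clopper-Pearson) from their estimated reads. It compares the libraries, not the treatments, and covers counting error only, since sequenced fragments are not independent molecules. The libraries were of like depth, from 17498486 (vehicle) to 18903401 (amiodarone + dabigatran) estimated reads. The 8 alveolar type 2 epithelium markers summed to between 25590 and 27646 FPKM, so that the tissue label was borne out in every library.

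IL-1α and IL-1β share a receptor that signals through MyD88 to the transcription factor NF-κB, and Il1rn encodes the antagonist that occupies this receptor without signaling. IL-1β and IL-18 are made as inactive precursors that caspase-1 cleaves inside inflammasomes, whereas IL-33 is held in the nucleus and released from damaged cells. TNF and IL-6 are products of activated macrophages, CSF-1 maintains macrophages, and CSF-2 (GM-CSF) from the alveolar epithelium is required for alveolar macrophages to mature. Messenger RNAs of many cytokines are short-lived because their 3′ untranslated regions carry AU-rich repeats of ATTTA that decay factors bind.

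These repeats were far denser in some of the 9 genes than in others. In the longest 3′ untranslated region of GENCODE mouse release 21, Csf2 held 9 copies of ATTTA in 317 bases, and only 4 of 16803 genes had more per kilobase. Tnf held 8 copies in 764 bases, more per kilobase than 99.2% of genes, and Il1b held 4 in 459 bases, more than 98.7%. Il6 had 10 copies in 1668 bases. Il1a had 3 in 1101, Il33 had 3 in 1677, Csf1 had 4 in 2111, Il18 had 1 in 334 and Il1rn had none in 1864. At least 1 copy was present in 8 of the 9 genes, against 67.4% of all genes. The longer form TTATTTATT was present in 2 of the 9, Csf2 (4 copies) and Tnf (5 copies), against 7.62% of all genes. The densest 30 bases of these 2 regions are printed with ATTTA in capitals, because the density of this repeat varies so widely among the cytokines (GRCm38.p6, minus strand, chr11:54247329-54247358 for Csf2 and chr17:35199679-35199708 for Tnf).
Csf2: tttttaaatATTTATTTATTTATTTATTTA
Tnf: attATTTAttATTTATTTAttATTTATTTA

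The 250 bases before each RefSeq start site (12 windows for the 9 genes) were searched for 4 short motifs. A loose form of the NF-κB site (GGG and CC with any 5 bases between them) was found on either strand in 5 of the 12 windows (Il1rn in 2 windows, Tnf, Il6 and Csf1), against 45.8% of 32851 promoters. TATAAA, the letters of the TATA box, was found on the sense strand in 5 windows (Il1a, Il1b, Tnf and, in 2 windows, Il33), against 7.59%. It began 203 bases before the start in 1 of the Il33 windows and 29 to 32 bases before it in the others. TGANTCA, the AP-1 site, was found in 3 (Il1a, Il1rn and Il6), against 6.75%, and TTGCNNAA, a C/EBP-type site, in 3 (Il33, Il6 and Csf2), against 9.56%. Neighboring matches of the NF-κB form overlapped by all but 1 base in Il6 and Csf1, and no match of one motif overlapped another. A match is a description of letters and not evidence of binding. Shown in full are the windows of Il1b and Csf2, which differed most between the amiodarone and vehicle libraries among the cytokines with at least 10 reads, and of Tnf and Il6, which are classical NF-κB targets with few reads here. Sequences are from RefSeq on GRCm38.p6, 5′ to 3′ on the gene's strand, with motif matches in capitals. They lie at chr2:129371165-129371389 (Il1b, minus strand, 225 bases, ending at the annotated gene boundary), chr11:54249900-54250149 (Csf2, minus), chr17:35202008-35202257 (Tnf, minus) and chr5:30012864-30013113 (Il6, plus).
Il1b: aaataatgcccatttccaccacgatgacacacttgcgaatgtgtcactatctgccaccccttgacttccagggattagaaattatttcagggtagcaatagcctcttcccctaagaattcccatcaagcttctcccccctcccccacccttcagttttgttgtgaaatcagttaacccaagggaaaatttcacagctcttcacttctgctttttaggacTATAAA
Csf2: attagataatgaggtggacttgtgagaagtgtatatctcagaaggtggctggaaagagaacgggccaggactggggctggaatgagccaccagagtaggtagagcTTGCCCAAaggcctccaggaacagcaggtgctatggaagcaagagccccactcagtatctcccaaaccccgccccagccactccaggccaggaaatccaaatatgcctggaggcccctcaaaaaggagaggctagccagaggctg
Tnf: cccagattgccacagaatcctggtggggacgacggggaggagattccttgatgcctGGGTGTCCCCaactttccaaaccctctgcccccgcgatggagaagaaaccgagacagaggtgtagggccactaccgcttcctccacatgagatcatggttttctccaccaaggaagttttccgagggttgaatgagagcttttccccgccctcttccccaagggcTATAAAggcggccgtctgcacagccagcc
Il6: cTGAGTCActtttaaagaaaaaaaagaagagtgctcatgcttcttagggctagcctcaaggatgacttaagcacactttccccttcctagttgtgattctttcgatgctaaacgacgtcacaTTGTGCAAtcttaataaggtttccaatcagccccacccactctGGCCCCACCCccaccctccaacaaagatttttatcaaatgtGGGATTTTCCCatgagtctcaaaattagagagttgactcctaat
In these windows Il1b held a TATA box only and Csf2 a C/EBP-type match only, Tnf held 1 NF-κB-type match and a TATA box, and Il6 held matches to 3 of the 4 motifs.

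Il1b encodes IL-1β, the secreted inflammasome product, and lies at chr2:129364569-129371164. Its level was 5.05 FPKM (117 reads) with vehicle and 3.63 FPKM (85 reads) with dabigatran, and 14.2 FPKM (347 reads) with amiodarone and 14.5 FPKM (363 reads) with amiodarone + dabigatran. The libraries therefore fell into a high pair, both with amiodarone, and a low pair, both without it. Il1b was higher with amiodarone than with vehicle by 2.81-fold (2.27 to 3.49), and higher with the combination than with dabigatran by 3.99-fold (3.15 to 5.12). The combination and amiodarone libraries differed by less than the counting error (ratio 1.02, 0.880 to 1.19). The dabigatran library lay below vehicle, at a ratio of 0.719 (0.537 to 0.959). Summed neutrophil markers showed the same pairs, at 579 and 404 FPKM with amiodarone and 105 and 94.5 FPKM without it, and their part in the level of Il1b was not tested. In bulk lung, fewer cells of a type and less RNA per cell cannot be told apart. Among all genes, Il1b stood above 45.8% in FPKM with vehicle and above 69.8% with amiodarone.

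Il1a encodes IL-1α, which is active without cleavage and is released from dying epithelial cells and macrophages (chr2:129299609-129310186, beside Il1b). Its level was 1.45 FPKM (49 reads) with vehicle and 2.61 FPKM (90 reads) with dabigatran, and 1.49 FPKM (54 reads) with amiodarone and 1.66 FPKM (62 reads) with amiodarone + dabigatran. Unlike for Il1b, the dabigatran library was highest and stood apart from the other 3, which did not differ among themselves beyond counting error. Dabigatran against vehicle gave a ratio of 1.80 (1.26 to 2.60), and the combination against dabigatran gave 0.636 (0.453 to 0.889). Amiodarone against vehicle was 1.03 (0.685 to 1.54).

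Il1rn encodes the IL-1 receptor antagonist (chr2:24336860-24351491). Its level was 2.04 FPKM (84 reads) with vehicle and 1.80 FPKM (77 reads) with dabigatran, and 2.72 FPKM (123 reads) with amiodarone and 2.89 FPKM (129 reads) with amiodarone + dabigatran. It had the order of Il1b over a narrower range. The ratio of amiodarone to vehicle was 1.33, with a lower bound that rounds to 1.0 and an upper bound of 1.78, and that of the combination to dabigatran was 1.61 (1.2 to 2.16). The FPKM of Il1b was 2.48 times that of Il1rn with vehicle (1.85 to 3.32) and 2.02 times with dabigatran (1.46 to 2.78), but 5.21 times with amiodarone (4.23 to 6.46) and 5.02 times with the combination (4.09 to 6.18). The quotient of IL-1β to antagonist messenger RNA was thus higher in both libraries with amiodarone, with intervals that do not overlap between the pairs. A value above 1 compares the FPKM of different genes and does not measure the balance of their proteins. For Il1a the quotient to Il1rn was above 1 in the dabigatran library, at 1.45 (1.06 to 1.99), and 0.711 (0.489 to 1.02) with vehicle, 0.548 (0.390 to 0.760) with amiodarone and 0.574 (0.417 to 0.783) with the combination.

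Il18 encodes IL-18, which is processed like IL-1β but is made constitutively by epithelium and macrophages (chr9:50554700-50581841). Its level was 8.16 FPKM (126 reads) with vehicle and 8.15 FPKM (120 reads) with dabigatran, and 11 FPKM (178 reads) with amiodarone and 15.7 FPKM (255 reads) with amiodarone + dabigatran. The combination library was highest, amiodarone came next, and vehicle and dabigatran could not be separated. Amiodarone stood at 1.34 times vehicle (1.06 to 1.70), and the combination at 1.43 times amiodarone (1.17 to 1.74) and 1.92 times dabigatran (1.54 to 2.41). It was the only one of the 9 genes whose interval lay above 1 in the comparison of the combination with amiodarone.

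Il33 encodes the alarmin IL-33, for which alveolar type 2 cells are a main source in mouse lung (chr19:29925113-29960718). It was the most abundant of the 9, at 28.2 FPKM (1225 reads) with vehicle and 23.8 FPKM (1051 reads) with dabigatran, and 39.6 FPKM (1844 reads) with amiodarone and 33.5 FPKM (1575 reads) with amiodarone + dabigatran. All 4 libraries were separated beyond counting error, in the order amiodarone, combination, vehicle, dabigatran, although the highest was only 1.67 times the lowest (1.54 to 1.80). The amiodarone ratio was 1.41 without dabigatran (1.31 to 1.51) and 1.41 with it (1.30 to 1.52). The dabigatran ratio was 0.845 without amiodarone (0.777 to 0.918) and 0.846 with it (0.790 to 0.905). The ratio of the 2 amiodarone ratios was accordingly 1.0 (0.899 to 1.12).

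Tnf encodes TNF, a product of activated macrophages and T cells (chr17:35199367-35202007). Its level was 0.770 FPKM (21 reads) with vehicle and 0.740 FPKM (21 reads) with dabigatran, and 1.07 FPKM (32 reads) with amiodarone and 0.990 FPKM (30 reads) with amiodarone + dabigatran. Both libraries with amiodarone had the higher value, but no 2 libraries differed beyond counting error. The highest was 1.45 times the lowest, with an interval from 0.808 to 2.64, so that a change of about the size seen for Il33 was not detectable at this depth.

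Il6 encodes IL-6, the main inducer of the acute-phase response (chr5:30013114-30019975). It had 2 reads (0.110 FPKM) with vehicle, 1 read (0.0500 FPKM) with dabigatran, 8 reads (0.390 FPKM) with amiodarone and 1 read (0.0500 FPKM) with amiodarone + dabigatran. Only the amiodarone library was above 3 reads, the limit that a count of 0 allows. The ratio of amiodarone to vehicle was 3.55, with an interval from 0.746 to 36.1, and that of the combination to amiodarone was 0.128 (0.00279 to 0.924). No ratio is given where both libraries held 3 reads or fewer.

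Csf1 encodes CSF-1, the growth factor of monocytes and macrophages, secreted mainly by stromal and endothelial cells (chr3:107741048-107760469). Its level was 16.9 FPKM (1159 reads) with vehicle and 17.4 FPKM (1228 reads) with dabigatran, and 20.8 FPKM (1555 reads) with amiodarone and 18.6 FPKM (1379 reads) with amiodarone + dabigatran. The amiodarone library was highest, and the others lay close together. The ratio of amiodarone to vehicle was 1.23 (1.14 to 1.33), and that of the combination to amiodarone was 0.893 (0.830 to 0.961). With dabigatran in both libraries the amiodarone ratio was 1.07 (0.988 to 1.15). This was smaller than without dabigatran, as the ratio of the 2 ratios was 0.867 (0.777 to 0.968).

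Csf2 encodes GM-CSF (chr11:54247270-54249899). Its level was 1.29 FPKM (22 reads) with vehicle and 2.63 FPKM (44 reads) with dabigatran, and 3.10 FPKM (56 reads) with amiodarone and 3.48 FPKM (62 reads) with amiodarone + dabigatran. Here the vehicle library was low and the 3 drug libraries did not differ beyond counting error. Amiodarone was 2.40 times vehicle (1.44 to 4.13) and the combination 2.70 times vehicle (1.64 to 4.61). Amiodarone on top of dabigatran gave 1.32 (0.885 to 1.99). All of these ratios to vehicle rest on the same 22 reads. The FPKM of Csf2 was 0.0762 times that of Csf1 with vehicle (0.0476 to 0.116), against 0.149 with amiodarone (0.112 to 0.194), 0.151 with dabigatran (0.109 to 0.204) and 0.187 with the combination (0.143 to 0.241).

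**Figure D1:**
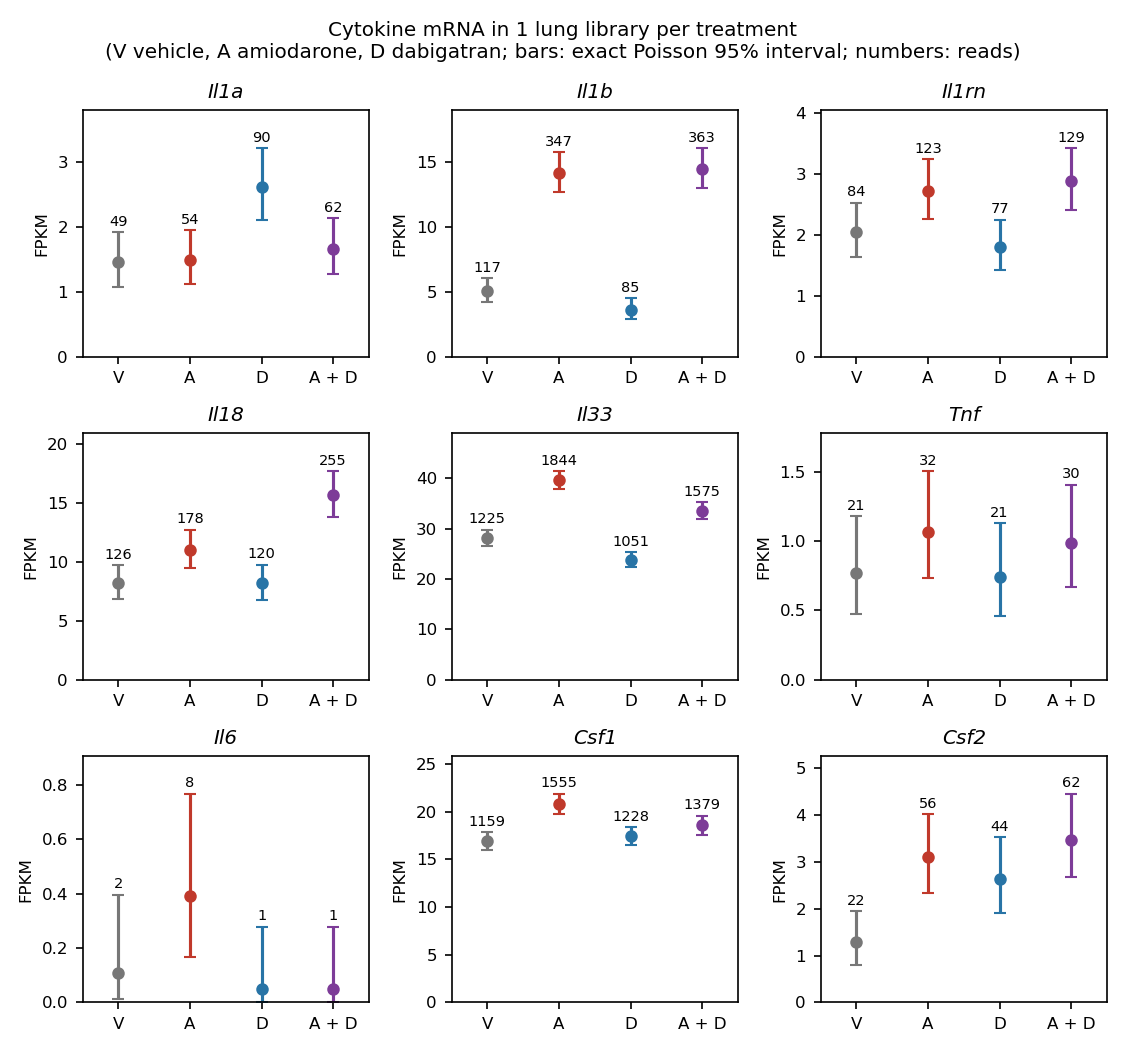
Level of each of the 9 cytokine genes in FPKM in the vehicle, amiodarone, dabigatran and amiodarone + dabigatran libraries (1 point per library, bars for the 95% counting interval). Il1b stands at 14.2 and 14.5 FPKM in the libraries with amiodarone and at 5.05 and 3.63 FPKM in those without, whereas Il1a is highest with dabigatran, at 2.61 FPKM.

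To ask how the cytokines differ with amiodarone treatment, the libraries without dabigatran were compared first. Of the 8 cytokines with at least 10 reads in either library, which left out Il6, 2 were at least 1.5-fold higher with amiodarone than with vehicle (Il1b and Csf2) and none was lower. Over the 15000 genes with as many reads, 6.58% were higher and 9.51% lower by as much. The counting interval lay above 1 for 6 of the 8 and below 1 for none, against 18.2% and 28.4% of all genes. The median log2 ratio was 0.45 for the cytokines and -0.06 over all genes.

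In the comparison of the combination with dabigatran, which uses the other 2 libraries, 3 of the 8 were at least 1.5-fold higher (Il1b, Il18 and Il1rn) and Il1a was lower, against 5.70% and 6.54% of 14995 genes. The interval was above 1 for 4 and below 1 for 1, against 18.1% and 22.3%. The median log2 ratio was 0.46, with -0.02 over all genes. Over this pair of comparisons, which share no library, 7 of the 8 cytokines were higher with amiodarone both times, and Il1a alone had opposite signs. The share of all genes higher both times is not given here, so that this count has no background to be read against. Il33, Il1b and Il18 were the 3 whose intervals lay clearly above 1 both times, joined by Il1rn with the lower bound near 1.

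Dabigatran showed less. Against vehicle, Il1a and Csf2 were at least 1.5-fold higher and none of the 8 was lower, against 3.09% and 3.14% of 14960 genes. The interval was above 1 for these 2 and below 1 for Il1b and Il33, against 14.1% and 12.5%, and the median log2 ratio was -0.03, against 0.00 over all genes. On top of amiodarone, none of the 8 was 1.5-fold apart in either direction (4.42% and 3.49% of 14952 genes were). The interval was above 1 for Il18 only and below 1 for Il33 and Csf1, against 19.6% and 14.0%. Il1a and Csf2 were higher in both dabigatran comparisons, and Il33 and Tnf lower in both, again without a share over all genes to set beside them. The other 4 lay on opposite sides of 1, although for Il1b the second ratio of 1.02 became 0.998 after rescaling by the median ratio, and for all 4 at least 1 of the 2 intervals included 1. Only Il33 had intervals that excluded 1 on the same side both times.

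Set against vehicle, the combination library had Il1b, Il18 and Csf2 at least 1.5-fold higher and none of the 8 lower (5.95% and 6.91% of 14989 genes were). Il1b was 2.87-fold higher (2.33 to 3.57) and Il18 1.92-fold higher (1.55 to 2.40). Il33 stood at 1.19 (1.10 to 1.28), Csf1 at 1.10 (1.02 to 1.19) and Il1rn at 1.42 (1.07 to 1.89). Dabigatran given with amiodarone was thus accompanied by lower values than amiodarone alone for Il33 and Csf1, which remained above vehicle, by a similar value for Il1b, and by a higher one for Il18.

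**Figure D2:**
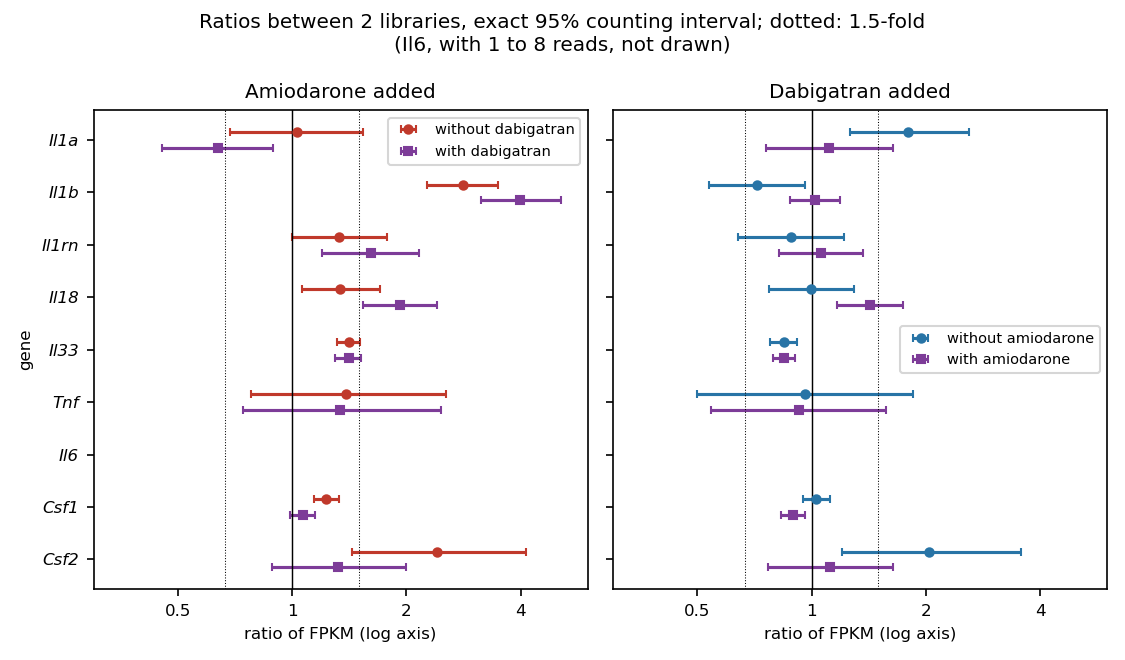
Ratio of FPKM, on a log axis, between libraries with and without amiodarone (left) and with and without dabigatran (right), each with the other drug absent (circles) or present (squares). Bars are 95% counting intervals and dotted lines mark 1.5-fold. For Il1b both amiodarone ratios, 2.81 and 3.99, lie right of 1.5, whereas Il1a lies at 1.03 and 0.636, and Il6 was not drawn.

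Receptors and partners of the cytokines were looked up in lists chosen by function. The counts of genes at least 1.5-fold apart with amiodarone are to be read against 6.58% of all genes higher and 9.51% lower, and the medians of the log2 ratios against -0.06 over all genes. Of 8 IL-1 family receptors, 2 were at least 1.5-fold higher with amiodarone than with vehicle and none was lower (median -0.03). Il1r2, the decoy receptor that binds IL-1 without signaling, had 0.710 and 0.400 FPKM with vehicle and dabigatran, and 11.7 and 4.15 FPKM with amiodarone and the combination. It was 16.4-fold higher with amiodarone (9.93 to 29.1), and the combination stood at 0.356 times amiodarone (0.281 to 0.448) and 10.4 times dabigatran (5.0 to 20.6). Il1r1, the signaling receptor, had 12.2 and 12.2 FPKM against 10.2 and 10.9 FPKM, in the same order. Hence the quotient of signaling to decoy receptor was 17.2 with vehicle and 30.4 with dabigatran, but 0.872 with amiodarone (0.762 to 1.0) and 2.64 with the combination (2.15 to 3.27). Il18rap, the accessory chain of the IL-18 receptor, was 1.59-fold higher with amiodarone than with vehicle (1.30 to 1.94). The IL-33 receptor Il1rl1 was low in every library, between 0.530 and 0.780 FPKM.

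Of the 10 symbols listed for other IL-1 family ligands and for the IL-18 binding protein, some of them synonyms, 3 were in the table and 2 had enough reads, and both were higher with amiodarone (median 0.98). Il18bp, whose product neutralizes IL-18, had 5.75 FPKM with vehicle, 8.16 with dabigatran, 12.0 with amiodarone and 11.8 with the combination, and was 2.09-fold higher with amiodarone than with vehicle (1.70 to 2.58). The quotient of Il18 to Il18bp was 1.42 with vehicle (1.10 to 1.82) and 1.32 with the combination (1.11 to 1.57), and lower with either drug alone, at 0.913 with amiodarone (0.754 to 1.10) and 0.999 with dabigatran (0.789 to 1.26). Il1f9, which encodes IL-36γ, was 1.86-fold higher with amiodarone (1.48 to 2.36). Of 10 genes of the inflammasome, which activates IL-1β and IL-18, 2 were higher and none lower (median 0.07). Nlrp3, its best known sensor, had 0.850 FPKM with vehicle and 1.46 with amiodarone (ratio 1.72, 1.24 to 2.41), and Mefv, which encodes the sensor pyrin, had a ratio of 2.51 (1.54 to 4.36). The combination exceeded dabigatran for both, by 2.31-fold (1.64 to 3.31) and 3.89-fold (2.11 to 7.12).

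Of 11 genes for TNF shedding, receptors and signaling, only Tnfaip3 was at least 1.5-fold apart with amiodarone (median 0.01), a share near that of all genes. It encodes the NF-κB inhibitor A20, and its ratio was 1.52 (1.35 to 1.71), with 0.759 for the combination against amiodarone (0.679 to 0.849). In the IL-6 family, 2 of 11 were higher and 2 lower (median 0.11). Socs3, the feedback inhibitor of IL-6 signaling, had 12.3 FPKM with vehicle, 12.6 with dabigatran, 38.7 with amiodarone and 26.3 with the combination, which was 3.15-fold higher with amiodarone (2.87 to 3.46) although Il6 itself was almost unread. Osm, which encodes oncostatin M, was 1.99-fold higher (1.21 to 3.34), and Lif lay at 0.611 (0.451 to 0.825). Il11 was the other lower gene, with an interval that included 1.

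Of 7 readable genes of the colony-stimulating factor ligands and receptors, 3 were higher and none lower (median 0.43). Csf3r, the receptor for G-CSF carried by neutrophils, had 10.3 FPKM with vehicle, 7.40 with dabigatran, 45.5 with amiodarone and 42.0 with the combination, and was 4.42-fold higher with amiodarone (4.01 to 4.89). Csf2rb, the signaling chain of the GM-CSF receptor, was 1.82-fold higher (1.61 to 2.05), and its close copy Csf2rb2 was 1.52-fold higher (1.23 to 1.88). Reads may be divided uncertainly between these 2 paralogs. Csf1r, the receptor for CSF-1, ranged only from 38.7 to 44.9 FPKM, and the quotient of Csf1 to Csf1r was highest in the amiodarone library at 0.512 (0.481 to 0.545), against 0.438 with vehicle (0.408 to 0.470), 0.426 with dabigatran (0.398 to 0.456) and 0.415 with the combination (0.389 to 0.442).

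Downstream, 21 genes of MyD88 and NF-κB signaling held 1 that was 1.5-fold apart with amiodarone, which was Rel, a subunit of NF-κB, at 0.519 (0.343 to 0.774), with a median of 0.03 and no higher share than over all genes. Of 10 readable genes that IL-1 and TNF are known to induce, 4 were higher and 1 lower (median 0.41). One of the 4, the chemokine gene Cxcl1, had 19 reads with amiodarone and 9 with vehicle, and an interval that included 1 (ratio 1.98, 0.855 to 4.98). Lcn2, an iron-sequestering protein of neutrophils and epithelium, was 5.86-fold higher (5.60 to 6.13), and Saa3, an acute-phase protein, 4.15-fold higher (2.39 to 7.64). Sele, the endothelial adhesion molecule E-selectin, was 3.16-fold higher (1.97 to 5.68), and Nos2, the inducible nitric oxide synthase, lay at 0.625 (0.459 to 0.846). With the combination Lcn2 and Sele stood at 0.348 (0.336 to 0.359) and 0.337 (0.225 to 0.585) times amiodarone, while Il1b did not differ between these libraries beyond counting error. None of 7 genes that act in the decay of AU-rich messenger RNAs was 1.5-fold apart (median -0.09). Zfp36l1, the one with most reads, stood at 0.807 (0.777 to 0.837).

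The same lists were counted in the other comparisons. For dabigatran against vehicle, where 3.09% of all genes were higher and 3.14% lower, 1 receptor (Il1r2) and 1 inflammasome gene (Mefv) were at least 1.5-fold lower, 1 induced target was higher (Sele) and 1 lower (Saa3), and none of the other 6 lists held a gene past that size. The intervals of the 3 lower genes included 1. For the combination against dabigatran, where 5.70% of all genes were higher and 6.54% lower, 4 of 7 colony-stimulating factor genes, 2 of 10 inflammasome genes, 2 of 21 MyD88 and NF-κB genes and 1 of 8 receptors were higher and none of these was lower. Of the 2 other IL-1 family genes, Il1f9 was higher. In that comparison the IL-6 family held 1 higher and 1 lower of 11, and the induced targets 2 higher and 1 lower of 9. For the combination against amiodarone, where 4.42% of all genes were higher and 3.49% lower, 4 of 10 induced targets were at least 1.5-fold lower and 1 was higher, 1 receptor (Il1r2) was lower, 1 gene of the IL-6 family (Il11) was higher, and the other 6 lists held no gene past that size. Cxcl1 was 1 of the 4 lower targets, with 9 against 19 reads and an interval that included 1 (ratio 0.469, 0.187 to 1.09). Il11 also rested on few reads, 21 with the combination and 11 with amiodarone.

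**Figure D3:**
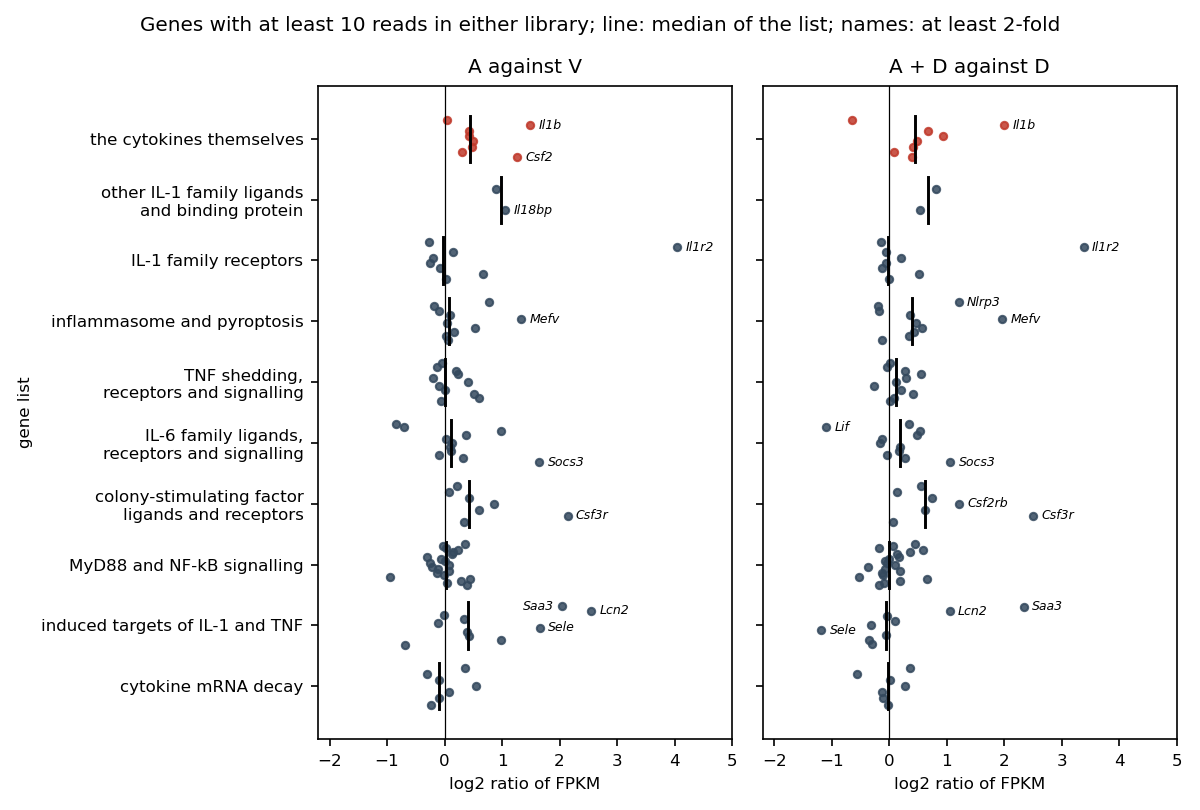
Log2 ratio of FPKM for the cytokines (red) and for the genes of 9 pathway lists (dark), for amiodarone (A) against vehicle (V) and for amiodarone + dabigatran (A + D) against dabigatran (D). Each point is a gene with at least 10 reads in either library, and the short line is the median of its list, which was 0.45 and 0.46 for the cytokines. Il1r2, at ratios of 16.4 and 10.4, lies farthest to the right in both panels.

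Markers of cells that make these cytokines also differed between the libraries. The summed FPKM of 8 neutrophil markers was 105 with vehicle and 94.5 with dabigatran, and 579 with amiodarone and 404 with the combination, which are the low and high pairs of Il1b. Of 7 of these markers with at least 10 reads, 6 were at least 1.5-fold higher with amiodarone than with vehicle, and Ly6g and Camp held 3 reads or fewer in the vehicle library. All 7 were lower with the combination than with amiodarone (median ratio 0.703), whereas Il1b stood at 1.02. Ltf did not show the pairs, at 24.4 FPKM with vehicle, 33.2 with dabigatran, 28.2 with amiodarone and 15.2 with the combination. The 10 alveolar macrophage markers summed to 325 and 374, and to 1087 and 1283 FPKM, in the same order of libraries, and 6 of them were higher with amiodarone. Chil3 alone held 67.2% of the sum with amiodarone and 73.3% with the combination. Without it the other 9 markers summed to 1.52 times vehicle with amiodarone, 1.11 times with dabigatran and 1.46 times with the combination, in place of 3.34, 1.15 and 3.95 times. Car4 was then the largest part, with 146 of 235 FPKM with vehicle, 194 of 356 with amiodarone and 153 of 343 with the combination. This sum therefore depends largely on Car4. For the combination against amiodarone, the interval lay above 1 for 7 of the 10 markers and below 1 for 2, Car4 among them. Over all genes these shares were 19.6% and 14.0%. The median ratio of the 10 markers to vehicle, which no single gene sets, was 1.87 with amiodarone and 2.26 with the combination. At least 1.5-fold higher were 6 and 7 of them. The 6 monocyte markers summed to 89.2 and 93.0, and to 217 and 176 FPKM, with 4 of 6 higher, and without Ly6c2, the most abundant, the sum with amiodarone was 1.67 times vehicle in place of 2.43 times. Without S100a9, the neutrophil sum with amiodarone was 5.01 times vehicle.

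Other cell types differed less. Alveolar type 2 epithelium, a source of Il33, Il18 and Csf2, summed to 1.03 times vehicle with amiodarone, 0.980 times with dabigatran and 1.06 times with the combination, but Sftpc alone held between 72.5% and 77.7% of these sums. The other 7 markers summed to 1.23, 0.947 and 1.2 times vehicle. With amiodarone, 6 of the 8 had intervals above 1 and 2 had intervals below 1, against 18.2% and 28.4% of all genes. The 2 lower ones were Abca3, at 0.877 (0.851 to 0.904), and Sftpc, at 0.976 (0.970 to 0.981). These markers have many reads, so that small differences exclude 1. The median ratio was 1.14, and Sftpd, the only one at least 1.5-fold apart, was 1.72-fold higher (1.68 to 1.76). The 5 fibroblast markers stood at 0.766, 1.12 and 0.833 times vehicle and the 5 endothelial markers at 1.02, 1.15 and 0.919 times, for the same 3 libraries. T cell and innate lymphoid markers stood at 1.15, 1.11 and 1.03 times, and mast cell and basophil markers, which summed to between 3.08 and 4.07 FPKM, at 0.830, 1.10 and 1.02 times. Il13 had no read with vehicle or dabigatran. In the T cell and innate lymphoid list, 1 of 7 readable genes, Klrg1, was at least 1.5-fold higher with dabigatran than with vehicle (3.09% of all genes were). It had 2.07 FPKM with dabigatran, 0.830 with vehicle, 1.35 with amiodarone and 1.21 with the combination (dabigatran to vehicle 2.49, 1.44 to 4.49). The list as a whole differed little, with a median ratio of dabigatran to vehicle of 1.08. With amiodarone against vehicle, 2 of the 7, Areg and Klrg1, were at least 1.5-fold higher and none was lower. Over all genes 6.58% were higher and 9.51% lower. Areg was 1.69-fold higher (1.33 to 2.17), and the interval of Klrg1 included 1 (ratio 1.63, 0.898 to 3.03). Areg had 8.93 FPKM with amiodarone and 6.38 with the combination. With vehicle it had 5.27 FPKM (107 reads) and with dabigatran 4.96 FPKM (102 reads). The part of these cell markers in the cytokine levels was not tested.

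**Figure D4:**
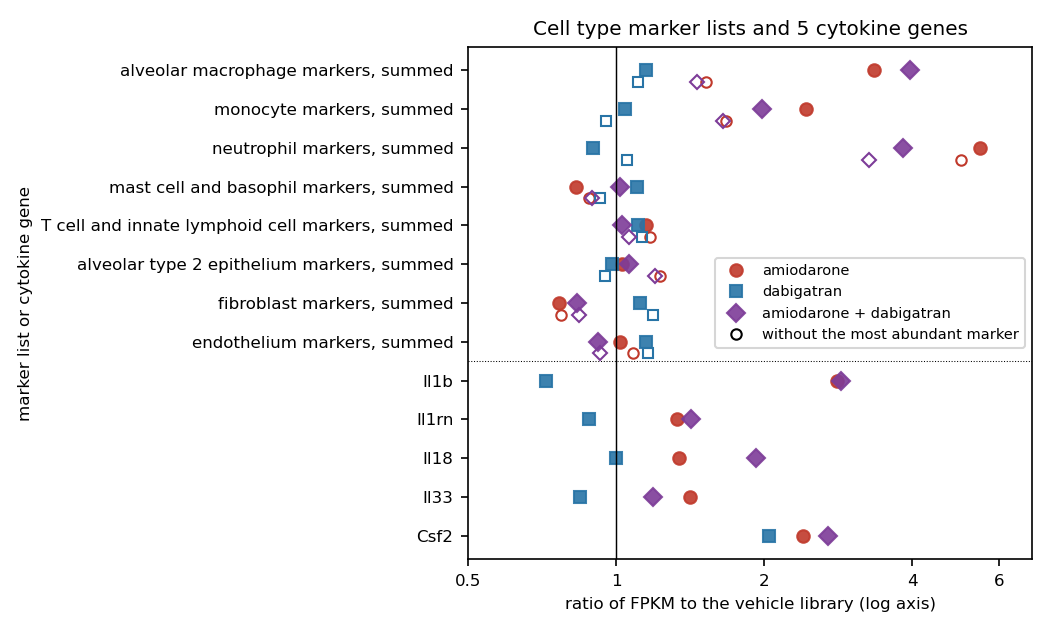
Summed FPKM of 8 lists of cell type markers, and FPKM of 5 cytokines, in each drug library relative to vehicle, on a log axis, with open symbols for the sum without the most abundant marker. The neutrophil sum stands at 5.49 with amiodarone and 5.01 without S100a9, whereas the alveolar macrophage sum moves from 3.34 to 1.52 without Chil3. Car4 is the largest part of the macrophage sum without Chil3.

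For the 3 cytokines with at least 100 reads in every library, the genes most like them in their 3 log2 ratios to vehicle were sought among 11541 genes by Euclidean distance. For Il18 they were Nfe2 (distance 0.072), Rab32 (0.091) and Ugt1a7c (0.12). For Il33 they were Rbm3 (0.091), Maff (0.11) and Dbr1 (0.12), and for Csf1 they were Rhoj (0.0069), Card19 (0.026) and Prrg3 (0.031). A likeness over 3 ratios that share the vehicle library is a description of these libraries.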

How the data were processed

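Lung RNA-Seq of mice given vehicle, amiodarone, dabigatran or both was analysed, with 1 library per group assigned from its label. The authors mapped reads with HISAT and Bowtie2 to GRCm38.p6 and deposited estimated counts from RSEM. They also deposited normalized values taken here as FPKM, because reads per value differed between the amiodarone and vehicle libraries by 1.07, the ratio of their totals (1.07). Values are on a linear scale, and 8 columns of means over libraries were not used.

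Ratios are quotients of the deposited FPKM with Clopper-Pearson intervals (95%) from counts rounded to whole reads (Python 3.11.15, scipy 1.17.1). Where either FPKM was under 0.5, the interval of a ratio between libraries was scaled by the library totals. It then need not be centered on the printed ratio. A gene entered counts with at least 10 reads in either library, and 1.5-fold was the size rule. A count of 0 allows up to 3 reads, and no ratio is given where both libraries are at or under that. Intervals and limits cover counting error only. Alternatives were a 2-fold threshold, a pseudocount of 1, read minimums of 100 or none, scaling by reads or by the median ratio, and leaving out the 10 genes with most reads. The method was checked on simulated libraries for amiodarone against vehicle (14929 genes with at least 10 reads), where 99.5% of 200 genes changed 2-fold and 3.15% of unchanged genes passed 1.5-fold. The 200 genes were drawn from those with at least 100 reads in the vehicle library, and the simulated counts held counting error only. Il1a, Il1rn, Tnf, Il6 and Csf2 had fewer reads than that with vehicle, so that the 99.5% does not cover them. Coordinates and promoters came from RefSeq, and 3′ regions from GENCODE mouse release 21, as the longest per gene.

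The cytokines and gene lists were chosen with earlier results of these data known. From each pathway list up to 4 genes are named that were at least 1.5-fold apart between amiodarone and vehicle with an interval excluding 1, or else the gene with most reads. Il1r1, Il1rl1, Csf1r, Il11, Cxcl1 and single cell type markers are named after their values were seen.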

Additional observations from a re-analysis of the deposited data

Results flagged for a closer look

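For 5 of the cytokines the ratios for one drug lay on opposite sides of 1 with and without the other drug, 1 of 8 for amiodarone and 4 of 8 for dabigatran. The share of all genes with such a difference in sign is not given here, and genes that do not change can show it too. The ratios of ratios below are of genes picked by that difference. In each case at least 1 of the 2 ratios had an interval that included 1, so that no gene had a direction beyond counting error both ways. The difference was not tested across animals, since each group held 1 library, and only counting intervals of the ratio of ratios are given. Il1a was at 1.03 times vehicle with amiodarone and at 0.636 times dabigatran with the combination (ratio of ratios 0.619, 0.362 to 1.06). Il1b was at 0.719 with dabigatran against vehicle and 1.02 with the combination against amiodarone, which became 0.998 after rescaling by the median ratio (ratio of ratios 1.42, 1.03 to 1.98). In the same comparisons Il18 was at 0.999 and 1.43 (ratio of ratios 1.43, 1.03 to 1.98), and Csf1 at 1.03 and 0.893 (ratio of ratios 0.867, 0.777 to 0.968). Il1rn was at 0.882 and 1.06, with a ratio of ratios of 1.2 (0.795 to 1.82), so that its 2 ratios could not be separated beyond counting error.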

How the results depend on the processing

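No paired analysis was possible because each group held 1 library, and no replicate could be left out. Rescaling by the median ratio (factors from 0.978 to 1.01), reads scaled to the library total with and without the 10 most abundant genes, and a pseudocount of 1 gave 168 alternative values for the 42 ratios of single cytokines. All 168 lay within the counting interval of the reported value and 1 crossed to the other side of 1, for Il1b in the combination against amiodarone (0.998 after rescaling by the median ratio, in place of 1.02). Counts of cytokines past the size rule are small and moved more. Counted over all 9, Il6 included, 3 were at least 1.5-fold higher with amiodarone than with vehicle. For dabigatran against vehicle the number higher was 1 in place of 2 with a pseudocount of 1 or at 2-fold. For the combination against amiodarone the number lower, 1 with Il6 included, was 0 with a pseudocount of 1 and 0 when only cytokines with at least 10 reads were counted. For the combination against dabigatran 1 in place of 3 was higher at 2-fold, and 0 in place of 1 was lower at 2-fold or with a pseudocount of 1. The share of all genes past 1.5-fold was smaller among genes with at least 100 reads. It was 5.48% lower for amiodarone, 0.694% higher and 0.529% lower for dabigatran, 1.53% and 1.4% for the combination against amiodarone, 3.73% and 3.13% against dabigatran, and 3.77% and 3.32% against vehicle. Chosen after seeing the data, leaving out the most abundant marker of each list moved the alveolar macrophage sum with amiodarone from 3.34 to 1.52 times vehicle and with the combination from 3.95 to 1.46 times. Car4 was then the largest part of that sum, and the median ratios of the 10 markers to vehicle were 1.87 and 2.26. Depth limits Il6, with 1 to 8 reads, Tnf, with 21 to 32, and the Csf2 ratios to vehicle, which rest on 22 reads. No value here measures the spread between animals.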
